A study of Rattus norvegicus with 12 samples.

Results

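The genes described here carry out the tricarboxylic acid (TCA) cycle and mitochondrial fatty acid oxidation. A list of 38 genes was set by name: 8 for entry of pyruvate, 13 for the TCA cycle, 4 for the carnitine shuttle, 9 for beta-oxidation, 3 for electron transfer from beta-oxidation and 1 transcriptional regulator, Ppargc1a. Of these, 36 were found among the 17450 genes of the expression table, and all 36 passed the filter on low counts. Pdha1 and Idh3b were not analysed here. Genes were listed by function, with earlier results of these data known, and no measured value enters the rule.

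The tissue was rat esophagus in 2 states. BE rats had esophagoduodenostomy (EDA) surgery, an operation connecting the esophagus with the duodenum that exposes the esophagus to duodenal reflux and is used to model Barrett's esophagus, while NC rats had no treatment. Each state had 3 input RNA-seq libraries and 3 libraries from RNA pulled down with an antibody to m6A (N6-methyladenosine, a methylated base of messenger RNA), 12 libraries in all. The labels give no strain, age, sex or time after surgery, and do not say whether each sample was a separate animal. The p-values therefore rest on the spread among these samples, which may not be a spread among animals.

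Mitochondria make energy from carbohydrate and fat by routes that meet at acetyl-CoA. Pyruvate is turned into acetyl-CoA by the pyruvate dehydrogenase complex, which pyruvate dehydrogenase kinases switch off. Long-chain fatty acids are loaded onto carnitine, carried across the inner membrane and shortened by beta-oxidation, and the TCA cycle oxidises the acetyl-CoA from both. These enzymes are abundant in oxidative muscle, and the muscle coat of the rat esophagus is striated.

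Levels are stated in CPM, that is, counts divided by the TMM-scaled library size, which allows a gene to be compared between libraries but not with another gene, since transcript length was not taken into account. Values are listed for BE replicates 1, 2 and 3 and then NC replicates 1, 2 and 3. Differences are log2 fold changes, BE over NC, ± SE, from edgeR's quasi-likelihood test over 13761 genes, and "rose" and "fell" are used for a Benjamini-Hochberg adjusted p under 0.05.

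Of all genes tested, 21.8% rose and 21.8% fell, with a median log2 fold change of 0.03. Total counts of the input libraries ran from 11213531 to 17471748. Cell type markers differed between the groups and within BE. Of 24 striated muscle markers tested, 22 fell, with a median of -4.40, and their summed level was 4779 to 6407 CPM in BE and 99445 to 111076 CPM in NC, with no marker at 0 throughout BE. All 7 smooth muscle markers fell, from 1989 to 2855 CPM in sum to 262 to 367 CPM, and adipocyte markers in 5 of 7, from 184 to 247 CPM to 23.5 to 49.6 CPM. Squamous epithelium markers rose in 10 of 14 cases, from 36403 to 48845 CPM to 62060 to 66572 CPM. The 14 columnar epithelium markers in the table summed to 131 to 303 CPM in BE, highest in replicate 1, and 73.9 to 82.7 CPM in NC. Most of this was Epcam alone, at 153, 171 and 129 CPM in BE and 76.9, 72.9 and 72.3 CPM in NC. Of the 2 columnar markers tested, Epcam rose by 1.03 ± 0.13 (adjusted p = 1.20e-04) and Krt19 did not pass. Vil1, Muc2, Muc13 and Agr2 were at 0 in every BE library and at no more than 6 counts in any NC library. None of these was tested. The other untested columnar markers in the table each had a higher mean CPM in BE, mainly through replicate 1 except for Krt20 and Lgals4. Of 8 macrophage and leukocyte markers tested, S100a8 (6.28 ± 1.11) and S100a9 (5.37 ± 1.22) rose, Csf1r fell (-1.04 ± 0.20) and 5 did not pass. The list summed to 293 to 875 CPM in BE and 176 to 425 CPM in NC. S100a8 and S100a9 averaged 154 and 209 CPM in BE and 1.95 and 4.98 CPM in NC, so this sum does not give the direction of the other markers. Of those, Ptprc, Cd68, Csf1r and Itgam were highest in NC replicate 3, and Cd14, Cd3e and Cd79a in a BE library. BE replicate 1 stood apart: its 17 hepatocyte markers summed to 10632 CPM against 64.7 to 158 CPM in the other 5 libraries, and each of the 17 was highest there, as were the columnar markers Krt18 (33.5 CPM), Fabp1 (76.1 CPM) and Hnf4a (23.8 CPM). In bulk tissue, fewer cells of a type and less RNA per cell cannot be told apart.

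Most of the genes stood lower in BE. Among the 36 genes were 23 that fell, 2 that rose and 11 that did not pass, against the 21.8% of all tested genes that fell and the 21.8% that rose. The median log2 fold change was -0.59, beside 0.03 for all genes tested, and single genes ran from -7.01 (Me3) to 1.18 (Pdk3). A fall of at least 2-fold was called for 9 of the 36, against 14.3% of all genes tested: Pdk2, Pdk4, Me3, Idh2, Sucla2, Cpt1b, Acadm, Acaa2 and Ppargc1a. Libraries of the groups did not overlap for 29 of the 36 genes, beside 56.0% of all genes tested, both in either direction. Of the 36, 25 lay lower in BE without overlap, beside 3831 of the 13761 genes tested. The summed level of the 36 genes was 3356 to 3471 CPM in BE and 4854 to 5491 CPM in NC. The part of the striated muscle difference in these values was not tested.

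The number of calls depended on scaling. With libraries scaled by total counts alone, 4536 of all genes rose and 2162 fell, so that 67.7% of the calls were rises, against 2999 rises and 2996 falls with TMM, and 5 of the 36 genes rose and 14 fell. The median of all genes moved from 0.03 to 0.32 and that of the 36 genes from -0.59 to -0.30. Relative to the median of all genes, the 36 genes stood at -0.62 under both, since scaling shifts all genes by nearly the same amount. Leaving out BE replicate 1 gave 22 falls and 2 rises.

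**Figure D1:**
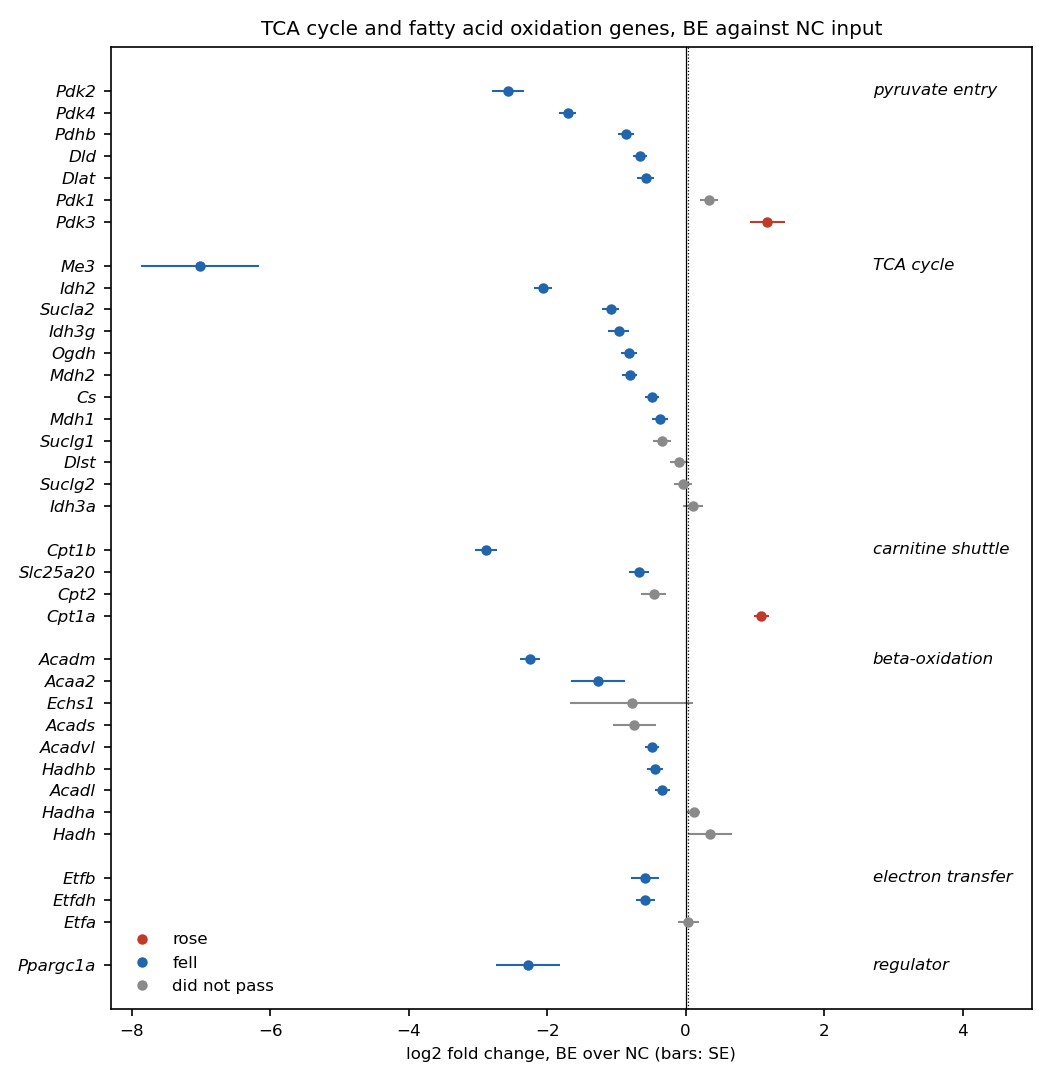
Log2 fold change of BE over NC input for each of the 36 genes, grouped by role, with bars for the SE. Points are colored by call, the solid line marks 0 and the dotted line the median of all genes tested (0.03). Cpt1a and Pdk3 lie to the right as the 2 genes that rose, and Me3 lies farthest to the left at -7.01; with total counts alone as the scaling, Pdk1, Idh3a and Hadha were also called as rises and Dlst and Suclg2 moved to the other side of 0.

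Pyruvate entry genes fell in 5 of 7 cases, with 1 rise, 1 that did not pass and a median of -0.66. The catalytic core of the pyruvate dehydrogenase complex was represented by Pdhb, the beta subunit of its decarboxylase, Dlat, its acetyltransferase, and Dld, the lipoamide dehydrogenase that other dehydrogenase complexes share. Pdhb stood at 53.3, 50.9 and 45.8 CPM in BE and 89.1, 91.3 and 92.0 CPM in NC and fell by 0.86 on the log2 scale (SE 0.11, adjusted p = 2.18e-04). Dlat (-0.58 ± 0.13) and Dld (-0.66 ± 0.11) also fell, and in all 3 genes every BE library lay below every NC library. The call of Dlat was lost with total counts alone (adjusted p = 0.0965).

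The 4 pyruvate dehydrogenase kinases, which phosphorylate and switch off that complex, moved in different directions. Pdk2 stood at 13.2, 9.0 and 8.38 CPM in BE and 71.9, 61.8 and 47.1 CPM in NC, a fall of 2.56 on the log2 scale (SE 0.23, adjusted p = 1.73e-05). Pdk4, the kinase known in muscle for its rise in fasting, stood at 116, 128 and 119 CPM in BE and 426, 422 and 336 CPM in NC, a fall of 1.71 (SE 0.12, adjusted p = 3.67e-06). In both genes the groups were far apart, with the highest BE library well under the lowest NC library. Pdk3 went the other way, with 32.4, 23.6 and 37.7 CPM in BE and 14.5, 10.3 and 16.6 CPM in NC, a log2 fold change of 1.18 ± 0.25 (adjusted p = 0.00338). Pdk1, which hypoxia is known to induce, stood at 53.5, 56.3 and 55.0 CPM in BE and 42.1, 39.6 and 49.1 CPM in NC. Its BE libraries all lay above its NC libraries, but the difference of 0.33 ± 0.13 did not pass (adjusted p = 0.0668); it passed with total counts alone, with voom and without NC replicate 3 (adjusted p of 0.00566, 0.0450 and 0.0471).

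**Figure D2:**
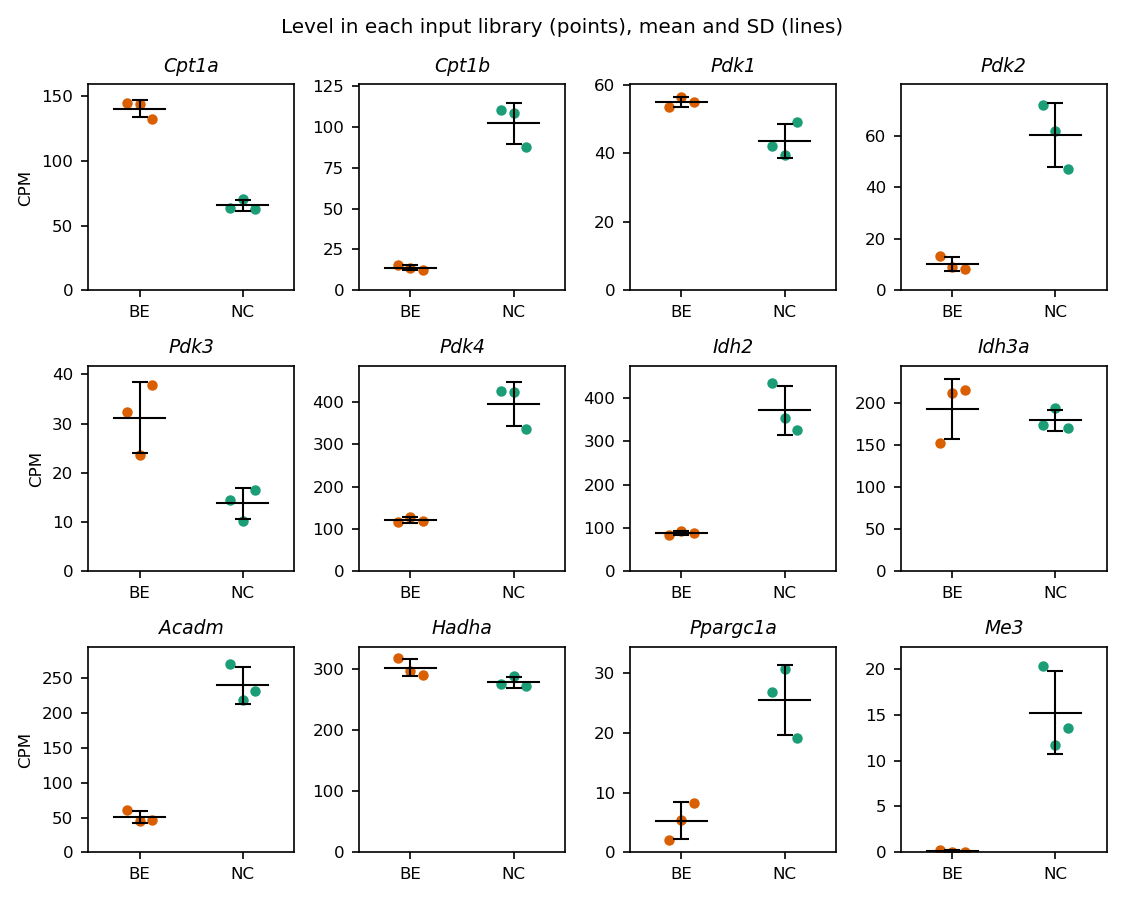
Level (CPM, each axis from 0) in the 3 BE and 3 NC input libraries for 12 of the genes, with points for libraries, long lines for the mean and bars for the SD. Cpt1a and Pdk3 are higher in every BE library, Idh3a overlaps between the groups, and Me3 is at or near 0 in BE.

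The makeup of the kinase counts also differed. Pdk4 took 53.9%, 59.0% and 54.1% of the counts of the 4 kinases in BE and 76.8%, 79.1% and 74.8% in NC, a difference of -21.2 percentage points. Pdk1 took 25.3 ± 0.598% in BE and 8.66 ± 1.99% in NC (SD, n = 3), and Pdk3 14.4 ± 3.18% in BE and 2.75 ± 0.895% in NC. The share of Pdk2 was 4.70 ± 1.26% in BE and 11.7 ± 1.24% in NC. Each of these 4 shares was separated between the groups, and the two-sided exact permutation test gave p = 0.1 for each, the smallest p that 3 libraries against 3 allow. The 4 shares add up to the whole in each library, so they are not separate results. The share of Pdk1 was larger in BE although its level did not pass. Shares of counts depend on transcript length, so they are compared between libraries only. In BE replicate 1 the 95% Wilson interval of the Pdk4 share was 52.3% to 55.4%, which covers counting error only, over 4075 kinase counts.

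TCA cycle genes fell in 8 of 12 cases and rose in none, with a median of -0.64. The strongest fall was that of Me3, the mitochondrial NADP-dependent malic enzyme, which makes pyruvate from malate. Its counts were 6, 0 and 0 in the BE libraries and 202, 174 and 189 in the NC libraries, or 0.316, 0 and 0 CPM against 20.3, 11.7 and 13.6 CPM. The fitted log2 fold change of -7.01 ± 0.85 (adjusted p = 2.52e-04) depends on the prior count added to such low values. Without BE replicate 1, which leaves BE with no Me3 counts, the fitted value was -10.8. Me3 thus lay near the limit of detection in BE and well above it in each NC library.

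Of the isocitrate dehydrogenases, Idh2 and Idh3g fell and Idh3a did not pass; here and for other related genes, the difference between the genes themselves was not tested. Idh2, the NADP-dependent mitochondrial form, stood at 84.4, 94.1 and 88.0 CPM in BE and 435, 353 and 326 CPM in NC and fell by 2.06 on the log2 scale (SE 0.13, adjusted p = 1.65e-06). The NAD-dependent form, which drives the cycle forward, is built of 3 kinds of subunit. Its catalytic subunit Idh3a stood at 152, 212 and 216 CPM in BE and 174, 194 and 171 CPM in NC, and the groups overlapped (0.11 ± 0.14, adjusted p = 0.579); with total counts alone it was called as a rise of 0.39 (adjusted p = 0.0426). Its regulatory subunit Idh3g stood at 49.7, 47.5 and 60.5 CPM in BE and 110, 113 and 84.6 CPM in NC and fell (-0.97 ± 0.15, adjusted p = 6.00e-04), with no overlap.

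Of the succinyl-CoA synthetase genes, 1 of 3 fell. The enzyme pairs a shared alpha subunit, Suclg1, with a beta subunit that uses ATP (Sucla2) or GTP (Suclg2). Sucla2 stood at 75.6, 64.1 and 79.4 CPM in BE and 155, 166 and 143 CPM in NC and fell by 1.08 on the log2 scale (SE 0.12, adjusted p = 7.32e-05). Suclg2 stood at 79.4, 71.3 and 65.4 CPM in BE and 82.9, 71.3 and 67.7 CPM in NC, at -0.04 ± 0.13 (adjusted p = 0.840) and at 0.25 with total counts alone, and its groups overlapped. Suclg1 lay between them, at 78.9, 89.8 and 67.8 CPM in BE and 107, 94.2 and 97.5 CPM in NC. Its difference of -0.34 ± 0.13 did not pass (adjusted p = 0.0606) although the groups did not overlap; it passed with DESeq2 size factors in edgeR, DESeq2 and voom and without BE replicate 2 (adjusted p of 0.0482, 0.0455, 0.0474 and 0.0264).

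The remaining TCA cycle genes fell less or did not pass. Ogdh and Dlst encode the first and second components of the oxoglutarate dehydrogenase complex. Ogdh stood at 261, 313 and 307 CPM in BE and 544, 560 and 448 CPM in NC (-0.82 ± 0.12, adjusted p = 4.12e-04). Dlst stood at 139, 170 and 170 CPM in BE and 172, 190 and 152 CPM in NC, with overlap, at -0.10 ± 0.13 (adjusted p = 0.569) and at 0.19 with total counts alone. Ogdh thus lay lower in every BE library, and Dlst did not. Of the malate dehydrogenases, mitochondrial Mdh2 fell by 0.81 on the log2 scale (SE 0.11), and cytosolic Mdh1 by 0.37 (SE 0.12, adjusted p = 0.0273), a call lost with total counts alone (adjusted p = 0.571) and without BE replicate 3, NC replicate 1 or NC replicate 2 (adjusted p of 0.0695, 0.0959 and 0.0975). Citrate synthase, Cs, which joins acetyl-CoA to oxaloacetate, stood at 185, 188 and 160 CPM in BE and 259, 246 and 241 CPM in NC and fell by 0.48 (SE 0.10, adjusted p = 0.00385), a call lost with total counts alone (adjusted p = 0.147).

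In the carnitine shuttle, 2 of 4 genes fell, 1 rose and 1 did not pass, with a median of -0.57. Carnitine palmitoyltransferase 1 catalyses the rate-limiting step of fatty acid entry, with Cpt1a known as its liver form and Cpt1b as its muscle form. Cpt1a stood at 144, 144 and 132 CPM in BE and 63.3, 70.7 and 62.8 CPM in NC and rose by 1.09 ± 0.11 (adjusted p = 3.36e-05). Cpt1b stood at 15.4, 13.8 and 12.3 CPM in BE and 110, 108 and 87.8 CPM in NC and fell by 2.88 on the log2 scale (SE 0.15, adjusted p = 5.83e-07). The isoforms thus moved in opposite directions, and neither had a BE library within the NC range. Cpt1b took 9.66%, 8.75% and 8.48% of the counts of both genes in BE and 63.5%, 60.5% and 58.3% in NC, a difference of -51.8 percentage points (two-sided exact permutation test, p = 0.1, the smallest this design allows). In BE replicate 1, which had 3034 such counts, the 95% Wilson interval of that share was 8.66% to 10.8%. Without BE replicate 1, Cpt1a rose by 1.10 ± 0.12.

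The other shuttle genes encode the carrier and the matrix enzyme. Slc25a20, the carnitine-acylcarnitine translocase, stood at 43.2, 36.0 and 49.4 CPM in BE and 72.6, 66.1 and 65.9 CPM in NC and fell (-0.67 ± 0.14, adjusted p = 0.00390). Cpt2, which returns the acyl group to CoA in the matrix, stood at 38.4, 27.2 and 41.0 CPM in BE and 43.8, 53.4 and 49.9 CPM in NC. Its BE libraries lay below its NC libraries, but the difference of -0.46 ± 0.18 did not pass (adjusted p = 0.0560); it passed with DESeq2 size factors in edgeR, DESeq2 and voom and without BE replicate 3 (adjusted p of 0.0453, 0.0413, 0.0239 and 0.0354).

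**Figure D3:**
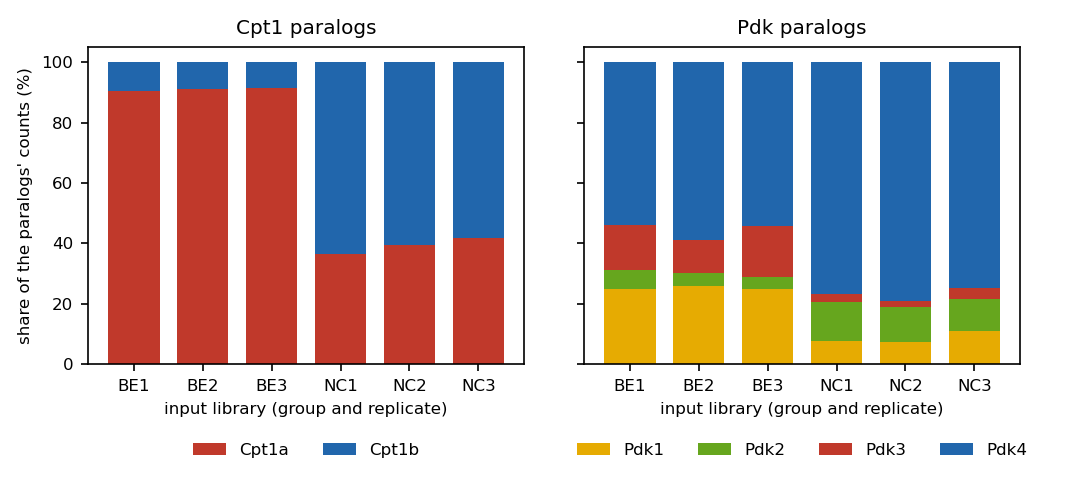
Share of counts (percent, stacked to 100) taken by each gene of the Cpt1 pair and of the 4 Pdk genes in each input library. Of the Cpt1 counts, Cpt1b holds 8.48% to 9.66% in the BE libraries and 58.3% to 63.5% in the NC libraries. Pdk4 holds a smaller share of the Pdk counts in each BE library than in any NC library.

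Beta-oxidation genes fell in 5 of 9 cases and rose in none, with a median of -0.49. The acyl-CoA dehydrogenases, which start each round for chains of a given length, fell in 3 of 4 cases. Acadm, for medium chains, stood at 60.4, 45.1 and 46.5 CPM in BE and 270, 219 and 231 CPM in NC and fell by 2.24 on the log2 scale (SE 0.15, adjusted p = 2.34e-06). Acadvl, for very long chains, stood at 107, 103 and 117 CPM in BE and 152, 154 and 153 CPM in NC (-0.49 ± 0.10, adjusted p = 0.00334, lost with total counts alone at 0.121). Acadl, for long chains, stood at 166, 155 and 188 CPM in BE and 211, 225 and 208 CPM in NC (-0.34 ± 0.11, adjusted p = 0.0275). The call of Acadl was among the least stable: it was lost with total counts alone (adjusted p = 0.690), with the replicate block (0.0694) and without BE replicate 1 or 2 or any one NC replicate (adjusted p of 0.0552 to 0.117). Acads, for short chains, stood at 6.48, 9.0 and 8.78 CPM in BE and 8.45, 15.1 and 17.0 CPM in NC, overlapped and did not pass (-0.74 ± 0.31, adjusted p = 0.0780), and passed without NC replicate 1 (adjusted p = 0.0251).

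The trifunctional protein, which carries out the later steps for long chains, had its subunits on different sides of the threshold. The alpha subunit Hadha stood at 319, 298 and 291 CPM in BE and 275, 289 and 272 CPM in NC, a difference of 0.12 ± 0.09 that did not pass (adjusted p = 0.344) and that was called as a rise of 0.40 with total counts alone (adjusted p = 0.00504). The beta subunit Hadhb stood at 285, 260 and 220 CPM in BE and 367, 341 and 332 CPM in NC and fell by 0.44 (SE 0.12, adjusted p = 0.0113), a call lost with total counts alone (adjusted p = 0.292). Neither gene overlapped between the groups.

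Within BE, Hadh, Acaa2 and Echs1 were highest in replicate 1, the library with the high hepatocyte markers, as were Acadm, Hadha and Hadhb. Hadh, which oxidises the 3-hydroxyacyl-CoA of shorter chains, stood at 116, 53.1 and 60.1 CPM in BE and 61.7, 70.0 and 48.3 CPM in NC, with overlap. Its difference of 0.35 ± 0.32 did not pass (adjusted p = 0.420) and was -0.053 without BE replicate 1. Acaa2, the thiolase that ends each round, stood at 45.4, 21.8 and 21.8 CPM in BE and 86.2, 82.6 and 45.5 CPM in NC and fell by 1.27 (SE 0.39, adjusted p = 0.0390). Without BE replicate 1 it fell by 1.68 (adjusted p = 8.54e-04), but the call was lost with total counts alone (adjusted p = 0.0612), with no filter on low counts (0.0642) and without BE replicate 2 or 3 or NC replicate 1 or 2 (adjusted p of 0.0834 to 0.108). Echs1, the hydratase for short chains, was counted at 1.16, 0.573 and 0.394 CPM in BE and 0.402, 1.07 and 2.15 CPM in NC, and did not pass (-0.78 ± 0.89, adjusted p = 0.517). Echs1 is usually an abundant transcript, and why its counts were so low in all 6 libraries was not tested.

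Electron transfer flavoprotein, made of Etfa and Etfb, hands electrons from the acyl-CoA dehydrogenases to Etfdh, which passes them to ubiquinone. Of these 3 genes 2 fell, with a median of -0.59. Etfdh stood at 91.0, 74.9 and 93.2 CPM in BE and 119, 150 and 120 CPM in NC (-0.59 ± 0.14, adjusted p = 0.00599, lost with total counts alone at 0.0764). Etfb stood at 54.5, 32.8 and 32.0 CPM in BE and 59.0, 60.7 and 59.8 CPM in NC (-0.59 ± 0.20, adjusted p = 0.0390). As with Acaa2, BE replicate 1 was nearest to NC; without it the fall was 0.86 (adjusted p = 5.31e-04), and the call was lost with total counts alone (adjusted p = 0.233) and without BE replicate 2 or 3 or any one NC replicate (0.0882 to 0.105). Etfa stood at 124, 87.6 and 93.5 CPM in BE and 111, 101 and 85.0 CPM in NC, with overlap (0.04 ± 0.16, adjusted p = 0.861), and was -0.098 without BE replicate 1. Among the 36 genes, 15 were highest within BE in replicate 1. The share over all genes tested was not computed, so this count does not show a trait of these genes.

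Ppargc1a encodes PGC-1alpha, a coactivator known to drive mitochondrial and fatty acid oxidation genes in muscle and brown fat. It stood at 2.11, 5.39 and 8.33 CPM in BE and 26.8, 30.6 and 19.2 CPM in NC and fell by 2.27 on the log2 scale (SE 0.46, adjusted p = 0.00454). The BE libraries spread widely among themselves, and the highest was below the lowest NC library.

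Promoters of 34 of the 38 genes were in the RefSeq promoter table of build GRCr8, read over the 250 bases before each annotated start. Idh3a, Acaa2, Cpt1b and Acadl had no entry. The cAMP response element, TGACGTCA, was found on either strand in 4 of the 34 (Ppargc1a, Acadm, Mdh2 and Ogdh), beside 1.59% of the 33469 promoters of the same length in the table. These 4 genes all fell, as did 63.9% of the 36 genes analysed. None of the 6 motifs searched was found for Idh2, Pdk2, Pdk4 or Me3, which also fell. The genes shown were picked after their values were seen, and a link between the element and the fall was not tested. A match is a description of letters and not a measured site. The promoters of Ppargc1a and Acadm, which hold that element and fell the most of the 4, are shown with it in capitals, next to those of Cpt1a and Pdk3, the genes that rose, in which none of the 6 motifs searched was found. They lie at chr14:63634058-63634307 (plus strand), chr2:245542865-245543114 (minus strand), chr1:209995910-209996159 (plus strand) and chrX:62547372-62547621 (minus strand).
Ppargc1a: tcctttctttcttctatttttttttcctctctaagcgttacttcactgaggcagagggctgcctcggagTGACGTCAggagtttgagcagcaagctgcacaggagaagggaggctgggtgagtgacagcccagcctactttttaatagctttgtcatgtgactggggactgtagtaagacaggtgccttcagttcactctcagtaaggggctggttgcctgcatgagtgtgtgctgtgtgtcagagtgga
Acadm: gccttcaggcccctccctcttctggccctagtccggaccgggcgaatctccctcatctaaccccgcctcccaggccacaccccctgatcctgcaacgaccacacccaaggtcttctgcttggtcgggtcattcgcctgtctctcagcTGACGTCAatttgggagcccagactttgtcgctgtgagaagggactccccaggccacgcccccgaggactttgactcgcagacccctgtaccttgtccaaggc
Cpt1a: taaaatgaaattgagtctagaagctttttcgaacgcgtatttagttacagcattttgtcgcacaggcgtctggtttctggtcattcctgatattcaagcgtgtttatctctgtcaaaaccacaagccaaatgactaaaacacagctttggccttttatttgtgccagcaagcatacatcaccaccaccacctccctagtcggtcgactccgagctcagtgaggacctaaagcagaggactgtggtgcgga
Pdk3: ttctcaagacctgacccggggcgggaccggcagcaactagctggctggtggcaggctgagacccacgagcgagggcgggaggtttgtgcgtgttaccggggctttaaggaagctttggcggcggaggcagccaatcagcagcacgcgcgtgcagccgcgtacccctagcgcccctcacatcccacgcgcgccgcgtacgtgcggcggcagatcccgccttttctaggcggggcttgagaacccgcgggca

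The other 5 motifs, also searched on both strands, were found as follows. The estrogen-related receptor element TCAAGGTCA was in none of the 34, beside 0.388% of all promoters, and the nuclear receptor core AGGTCA, which lies inside it, was in 3 (Acadvl, Dlat and Echs1), beside 14.1%. The MEF2 motif (CTA, any 4 bases, then TAG) was in none, beside 3.41%. The NRF1 motif (GCGCA, any base, then GCGC) was in 3 (Etfb, Etfdh and Sucla2), beside 3.75%, and the GC box GGGGCGGGG in 5 (Acads, Hadh, Ogdh, Sucla2 and Suclg2), beside 9.0%. No match says only that these letters are not in the window.

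Another 93 genes of the same pathways were listed by function, and 91 of them were tested. The test called 37 as falls and 11 as rises and 43 did not pass, at a median of -0.47, so that 40.7% fell beside 63.9% of the 36 genes and 21.8% of all genes tested. In the TCA and anaplerosis list, 10 of 20 fell and 2 rose. Got1, the cytosolic aspartate aminotransferase, fell by 2.15 (SE 0.19), from 150 ± 40.8 to 33.7 ± 3.74 CPM (SD, n = 3). Acly, which makes cytosolic acetyl-CoA from citrate, rose by 0.78 ± 0.10, from 206 ± 1.72 to 353 ± 21.6 CPM, and pyruvate carboxylase, Pc, by 0.65 ± 0.18 (adjusted p = 0.0169; 0.0547 to 0.0677 without BE replicate 2, NC replicate 1 or NC replicate 3). Of 9 further pyruvate entry genes 4 fell and none rose, with the phosphatase regulator Pdpr (-1.58 ± 0.17) and the lipoate synthase Lias (-1.29 ± 0.25) lowest.

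Genes of fatty acid supply and activation fell in 6 of 18 cases (33.3%) and rose in 2 (11.1%), beside 21.8% of all genes tested in each direction. The acyl-CoA synthetase Acsl6 fell by 2.97 (SE 0.61), a log2 fold change of -3.61 without BE replicate 1, and its family member Acsl5 rose by 0.97 ± 0.12, from 71.8 ± 6.39 to 140 ± 12.3 CPM. Acetyl-CoA carboxylase makes malonyl-CoA, which inhibits Cpt1. Its form Acacb, known from muscle mitochondria, fell by 2.91 (SE 0.20), from 57.9 ± 3.40 to 7.73 ± 1.69 CPM, while Acaca, the form of fatty acid synthesis, rose by 0.61 ± 0.12, from 135 ± 14.7 to 206 ± 13.2 CPM. As in the Cpt1 pair, the form known from muscle fell and the other rose. Not every related pair split in this way: the AMP-activated kinase subunits Prkaa2 (-3.52 ± 0.19) and Prkaa1 (-0.50 ± 0.16) both fell. The cause was not tested.

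Auxiliary genes of mitochondrial beta-oxidation fell in 8 of 15 cases, with Acadsb (-3.00 ± 0.33) and Acad10 (-1.93 ± 0.25) lowest, and Acad9, also an assembly factor of respiratory complex I, was the one that rose (0.54 ± 0.13). Of 11 peroxisomal genes tested 3 fell (27.3%) and 1 rose (9.09%), beside 21.8% of all genes tested in each direction. The transporter Abcd2 fell by 4.76 (SE 0.54) and Ech1 by 1.83 (SE 0.18). Of 18 transcriptional regulators 6 fell (33.3%) and 5 rose (27.8%), shares also near the 21.8% of all genes tested in each direction. Perm1, a muscle regulator that acts with PGC-1alpha, fell by 5.45 (SE 0.27), from 103 ± 23.5 to 2.35 ± 0.666 CPM, and the nuclear receptor Esrrg by 4.30 (SE 0.43). The nuclear receptors Ppard (1.07 ± 0.12) and Pparg (1.23 ± 0.29) rose.

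**Figure D4:**
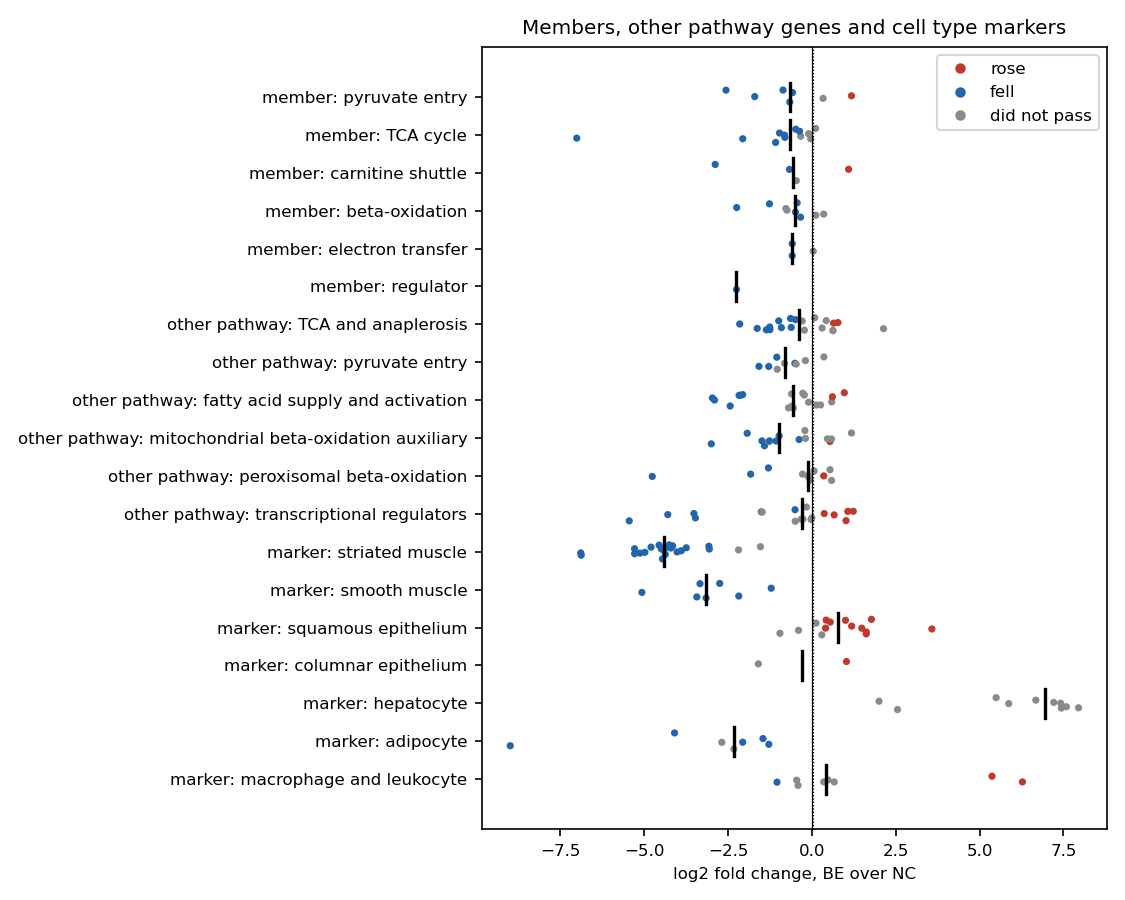
Log2 fold change of BE over NC input (horizontal axis) for each tested gene of the role lists, the other pathway lists and the cell type marker lists, 1 row per list, with points colored by call and a bar at the median of the list. The striated muscle markers center on -4.40 and the hepatocyte markers, high in BE replicate 1, on 6.94 with no call; the role lists lie between them with medians of -2.27 to -0.49, and with total counts alone the median of all genes is 0.32 in place of 0.03.

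The m6A libraries were deposited as peak lists, 1 per IP library, and each peak has a fold enrichment given by the authors. Of the 36 genes in the expression table, 22 had a peak in at least 1 IP library, beside 73.2% of the 13638 gene symbols tested for expression, and 12 had one in all 6, beside 46.9%. The 12 were Pdk1, Idh2, Ogdh, Dlst, Suclg1, Cpt1a, Cpt2, Acadm, Acadl, Hadh, Etfb and Ppargc1a. The 14 without a peak were Dlat, Dld, Pdk3, Idh3g, Sucla2, Mdh1, Me3, Cpt1b, Acadvl, Hadha, Hadhb, Echs1, Acaa2 and Etfa. Thus Cpt1a had peaks in every library and Cpt1b in none, while Pdk1 had one in every library and Pdk3 in none. Peaks on the 36 genes numbered 40, 39 and 34 in BE and 32, 43 and 31 in NC, out of 16644 to 20531 in all, and the read depth of those libraries is unknown.

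Mdh2 was the only one of the 36 genes with peaks in all 3 BE libraries and no NC library, a pattern of 1.83% of genes tested, and none had the reverse pattern, which 1.70% of genes tested had. The Mdh2 peak was 165 bases long at chr12:25951491-25951655, on the build of the peak lists, which the sources used here do not give, with fold enrichments of 10.3, 7.23 and 9.01 in the BE lists. Its RNA fell in BE, from 253, 231 and 225 CPM in NC to 134, 147 and 125 CPM. The peak was thus called where the input level was lower. Cs also had this pattern among peaks with a score of at least 100 and without NC replicate 2.

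Merged where they overlapped, the peaks on these genes formed 57 regions with a median width of 159 bases (52 to 2045). Of the 57, 22 were held by all 6 libraries, beside 39.0% of regions over all genes, 4 by BE libraries only, beside 4.33%, and 1 by NC libraries only, beside 2.55%. Another 14 were held by 1 library, 8 of them by NC replicate 2 and 5 by BE replicate 1. The 4 BE-only regions were those of Mdh2, Cs (chr7:2756197-2756406, 210 bases) and Dlst (chr6:116602865-116602995 and chr6:116620207-116620312). Cs also had a separate peak in NC replicate 2, and Dlst had a region of 1506 bases in all 6 libraries. Dlst had 5, 4 and 4 peaks in BE and 1, 1 and 2 in NC.

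The NC-only region lay on Pdk2 (chr10:82663558-82663773, 216 bases), with fold enrichments of 11.3, 5.58 and 8.60 in the NC lists. Pdk2 had another region, 1024 bases long, in BE replicates 1 and 3 only, so the gene carried a peak in 5 of 6 libraries; among peaks with a fold of at least 5, it had peaks in NC only. Its input level was 8.38 to 13.2 CPM in BE and 47.1 to 71.9 CPM in NC, and the part of that difference in the peak calls was not tested. Of the 43 regions held by at least 2 libraries, 39 had the same start and end in each.

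The highest median fold enrichments of the top peak belonged to Ogdh, Idh2, Cpt2, Suclg1 and Etfb, with 38.1, 27.5, 23.3, 21.1 and 18.1 over the 6 lists. The top peak of Ogdh was a region of 52 bases held by all 6 libraries, with 30.6, 38.6 and 37.6 in the BE lists and 50.5, 43.6 and 36.7 in the NC lists. That of Idh2 was a region of 144 bases, also in all 6, with 27.8, 27.1 and 24.9 in BE and 90.8, 39.6 and 25.5 in NC. The order is over both groups pooled and differed between them: Suclg1 had 14.3, 7.57 and 14.6 in BE and 27.5, 28.1 and 33.4 in NC, and Etfb 19.4, 14.3 and 16.9 in BE and 12.9, 30.5 and 24.0 in NC. Cpt2 ran from 21.9 to 29.8 in BE and from 11.8 to 35.0 in NC. Fold enrichments come from a separate list for each library, and a difference between lists was not tested.

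**Figure D5:**
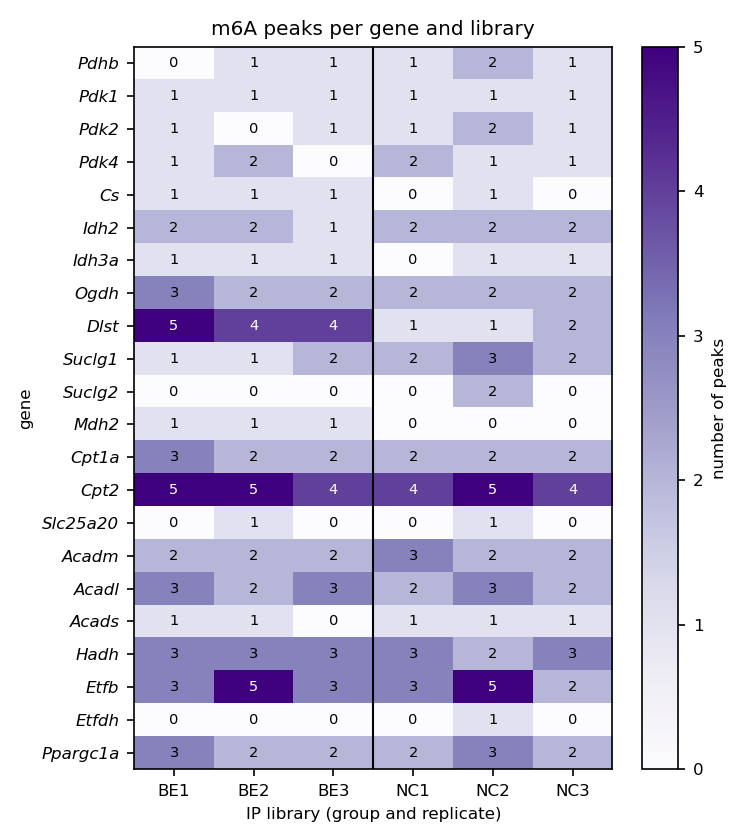
Number of m6A peaks (color and digit) on each of the 22 genes with a peak, in the 3 BE and 3 NC IP libraries. Mdh2 has a peak in each BE library and none in NC, Dlst has 4 or 5 peaks in BE and 1 or 2 in NC, and Cpt2 has 4 or 5 in every library.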

How the data were processed

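The submitters' processing notes name cutadapt 1.9.3 and HISAT2 2.0.4. The sources used here give no genome build, annotation, counting tool or use of strand. The authors deposited whole-number counts per gene for the 6 input libraries. A further 6 normalized columns were left out. The authors deposited 1 peak list per IP library, with peaks named after the MACS caller. Per the file headers, the lists give a score of -10 times log10 of p and a ratio, the fold enrichment, which served only to describe or filter peaks. Coordinates count from 1, taking the lists to count from 0 as BED files do.

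Groups and replicate numbers came from the labels. Counts were fitted in R 4.3.3 with edgeR 4.0.16 (filterByExpr with a minimum of 10 counts, TMM, robust quasi-likelihood, two-sided, no covariates); of 17450 genes, 13761 were tested and 3689 were not. The code was tested on simulated data with less spread and far fewer changed genes than these data. That check does not cover the scaling of these libraries. The common biological coefficient of variation was 0.324. CPM are counts scaled by TMM-adjusted library size. No 2 libraries of a group were copies (mean chi-square per gene 20.9 to 81.0). Intervals are Wilson intervals at 95%.

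A gene or region was BE-only if all 3 BE lists and no NC list held it. Peaks were merged at an overlap of at least 1 bp.

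The genes and lists were chosen with earlier results of these data known. By a written rule, library values are given for genes that rose or did not pass, the 2 largest falls of each role, the paralog sets and genes the m6A results name. Of each other pathway list, up to 2 rises and 2 falls with at least 5 CPM are named, except 2 genes that are not reported here. The lists and their m6A regions were not tested as sets. Alternatives were DESeq2 1.42.0 and its size factors, total counts, no filter, voom from limma 3.58.1, the replicate block, leaving out each library, and for peaks a score of at least 100, a fold of at least 5 and 50% overlap. Tables and plots were made with Python 3.11.15 (pandas 2.3.3, NumPy 2.4.6, matplotlib 3.10.9, SciPy 1.17.1). Peak sequences were not analysed here.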

Additional observations from a re-analysis of the deposited data

How the results depend on the processing

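Across 12 alternatives, 16 of the 25 called genes of the TCA cycle and fatty acid oxidation list kept their call in every one and 9 lost it in some: Dlat, Cs, Acadvl, Hadhb and Etfdh with total counts alone, and Mdh1, Acadl, Acaa2 and Etfb also in others. Of 432 values of single genes under an alternative, 381 kept direction and call, 28 lost the call, 14 gained one and 9 changed sign. With total counts alone, 4536 of all genes rose (2999 with TMM), 5 of the 36 genes rose, 14 fell, and 21 other pathway genes rose (11 with TMM). The changes of sign were all in genes that did not pass: Dlst at 0.19 and Suclg2 at 0.25 with total counts alone, Etfa at -0.031 with voom, and, when 1 library was left out, Dlst (-0.18 to 0.021), Suclg2 (-0.098 to 0.049), Hadh (-0.053 to 0.54) and Etfa (-0.098 to 0.13). Leaving out 1 library gave 19 to 22 falls and 2 to 3 rises among the 36 genes. Peaks were BE-only on 2 genes (Cs and Mdh2) among peaks with a score of at least 100, and on 1 to 2 when 1 library was left out (2, Cs and Mdh2, without NC replicate 2). They were NC-only on 1 gene (Pdk2) among peaks with a fold of at least 5. An overlap of at least 50% left 57 regions. That setting could hardly change them, as 39 of the 43 regions held by at least 2 libraries had the same start and end in each. The cause of these changes was not tested. Replicate numbers did not pair the samples: correlations of same-numbered deviations were -0.04, 0.01 and -0.07. With the replicate block, 2540 genes rose and 2683 fell, as did 22 of the 36 genes, while 2 rose; Acadl was the gene that lost its call. For the Cpt1b and Pdk4 shares, the mean paired differences are by arithmetic those of the group means, -51.8 and -21.2 percentage points, and a paired exact test could not go below p = 0.25. The 3 libraries per group and the unknown depth of the IP libraries limit what could be detected.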

Other observations

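Among the 93 other pathway genes, 71 had an m6A peak in at least 1 IP library and 40 had one in all 6, beside 73.2% and 46.9% of gene symbols tested for expression. Got1 and Slc25a1, the mitochondrial citrate carrier, had peaks in all 3 BE libraries and no NC library (1.83% of gene symbols tested had this pattern), with authors' top fold enrichments of 5.53, 10.5 and 6.45 for Got1 and 5.79, 5.96 and 5.36 for Slc25a1. Acsl6 and Esrrg had peaks in all 3 NC libraries and no BE library (1.70% had this pattern), with 12.4, 9.48 and 6.32 for Acsl6 and 16.7, 12.1 and 11.2 for Esrrg. The RNA of Acsl6 stood at 1.48 ± 1.15 CPM in BE and 11.7 ± 0.275 CPM in NC (SD, n = 3) and that of Esrrg at 1.20 ± 0.601 and 23.7 ± 6.54 CPM, so the NC-only peaks lay on genes near 1 CPM in BE. Got1, with BE-only peaks, stood at 33.7 ± 3.74 CPM in BE and 150 ± 40.8 CPM in NC.

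Of the 166 merged regions on these genes, 57 were held by all 6 libraries, 5 by BE only (on Got1, Slc25a1, Ppara, Pparg and Tfam) and 7 by NC only (on Abcd2, where there were 2, Acacb, Acsl6, Esrrg, Prkaa2 and Rxra). Over all genes, 39.0% of regions were held by all 6 libraries, 4.33% by BE only and 2.55% by NC only. The RNA of Tfam, the mitochondrial transcription factor, did not pass at 0.00 ± 0.20 (edgeR, adjusted p = 0.997), and Rxra, the shared partner of the PPAR receptors, rose by 0.37 ± 0.11. Prkaa2, the catalytic alpha2 subunit of AMP-activated kinase, fell by 3.52 (SE 0.19).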
